A study of Mus musculus with 9 samples.

Results

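The transcription factor p53 (gene symbol Trp53) and its target genes were followed as a set of 31 genes in Hepa 1-6 cells, a mouse hepatoma line. The members are established p53 targets and the p53 gene itself, taken by symbol from the deposited gene table; the rule that lists them uses no measured value, although the set was drawn up with earlier results of these data known. All 31 were found among the 53647 genes listed, and all 31 were among the 13661 genes with enough counts to be tested. Poly(A) RNA had been sequenced from 9 samples in 3 groups of 3. The Usp5 knockout cells had received a lentiviral CRISPR vector with a guide against Usp5, a deubiquitinase that takes apart free polyubiquitin chains. The Ythdf1 knockout cells had received CRISPR/Cas9/EGFP plasmids against Ythdf1, a cytoplasmic reader of N6-methyladenosine in mRNA. The control cells carried a control guide (sgControl). No drug or DNA-damaging treatment is named for any group. Knockout lines were single-cell clones chosen by immunoblot for the lost protein, and the sources used here do not give how many clones were sequenced. The design asked which genes respond alike to the loss of either protein, with immune genes in view.

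In unstressed cells the p53 protein is kept low by the ubiquitin ligase Mdm2, which is held in a complex with its relative Mdm4. Stress frees p53 from them, and p53 then binds a response element built of paired decamers in its targets. Those targets arrest the cell cycle, restrain growth, repair DNA or open the way to apoptosis, and Mdm2 and Ppm1d are targets that turn p53 down again. Much of this control acts on the stability of the protein, which RNA sequencing does not see. In liver, p53 is a tumor suppressor that hepatomas often lose or bypass.

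The samples held between 24760877 and 42989715 counts. Usp5 mRNA averaged 115 ± 6.58 CPM (counts scaled to library size) in the Usp5 knockout and 214 ± 26.5 CPM in control (SD, n = 3 each). Its log2 fold change was -0.89 ± 0.11 (SE; edgeR's quasi-likelihood test with Benjamini-Hochberg adjustment, adjusted p = 0.0003157). Ythdf1 mRNA averaged 48.3 ± 2.22 CPM in the Ythdf1 knockout and 189 ± 7.06 CPM in control (SD, n = 3 each; log2 fold change -1.97 ± 0.07, edgeR adjusted p = 1.207e-07). Control replicate 3 stood apart from the other controls: 16.4% of all tested genes lay more than 0.5 log2 units from them, against 2.39% to 7.25% in every other library. Mitochondrially encoded genes took 3.67% to 6.14% of counts in the Usp5 knockout, 3.51% to 4.96% in the Ythdf1 knockout, and 2.33%, 2.32% and 5.91% in control replicates 1, 2 and 3. The part of control replicate 3 in the results was not tested beyond leaving it out, and counts of members are given with and without it. Hepatoma markers were present in every library, with 10 of 10 detected, but not all were high. Ttr, Apoa1 and Apoa2 averaged only 0.064, 0.29 and 0.56 CPM in control, while Apoe averaged 2077 CPM. The summed level of the 10 was 9304 to 9873 CPM in the Usp5 knockout, 11182 to 11914 CPM in the Ythdf1 knockout and 6269 to 6704 CPM in control. The marker lists of other cell types were low: leukocyte markers summed to at most 17.1 CPM with Cd3e at 0, endothelial markers to at most 1.30 CPM, and fibroblast or stellate markers to at most 2.04 CPM with Lrat at 0.

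Promoter sequences are shown for 5 members because they carry the decamer that p53 binds and because these genes did not move alike. The RefSeq promoter table (GRCm38.p6) held windows of 250 bases before and 50 bases after the annotated start for 23 of the 31 members. The p53 consensus decamer was found on either strand in the windows of 12 of these 23 genes (52.2%). Over all 27025 genes with a window, 2582 (9.55%) had a match. A pair of decamers that both match the consensus exactly, with a spacer of up to 13 bases, was found in 1 member, Cdkn1a, and in 20 of all genes (0.074%). The 250 bases before each start follow, 5′ to 3′ on the gene's strand, with the decamers in capitals.
Cdkn1a, chr17:29090729-29090978, plus strand: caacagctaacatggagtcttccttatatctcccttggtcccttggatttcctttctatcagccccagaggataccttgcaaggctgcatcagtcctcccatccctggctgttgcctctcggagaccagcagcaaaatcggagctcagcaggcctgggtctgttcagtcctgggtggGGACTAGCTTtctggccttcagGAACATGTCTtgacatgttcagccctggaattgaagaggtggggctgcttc
Gadd45a, chr6:67037408-67037657, minus strand: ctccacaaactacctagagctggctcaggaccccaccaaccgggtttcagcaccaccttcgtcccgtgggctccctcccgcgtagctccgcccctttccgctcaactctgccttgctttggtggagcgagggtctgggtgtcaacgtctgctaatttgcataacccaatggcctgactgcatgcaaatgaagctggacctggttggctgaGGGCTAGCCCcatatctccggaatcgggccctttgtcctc
Bax, chr7:45466899-45467148, minus strand: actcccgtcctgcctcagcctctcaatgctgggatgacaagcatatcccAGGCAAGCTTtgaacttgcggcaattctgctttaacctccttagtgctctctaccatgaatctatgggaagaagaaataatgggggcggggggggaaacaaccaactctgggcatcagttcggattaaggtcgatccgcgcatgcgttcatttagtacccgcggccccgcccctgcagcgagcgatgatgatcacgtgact
Mdm2, chr10:117710759-117711008, minus strand: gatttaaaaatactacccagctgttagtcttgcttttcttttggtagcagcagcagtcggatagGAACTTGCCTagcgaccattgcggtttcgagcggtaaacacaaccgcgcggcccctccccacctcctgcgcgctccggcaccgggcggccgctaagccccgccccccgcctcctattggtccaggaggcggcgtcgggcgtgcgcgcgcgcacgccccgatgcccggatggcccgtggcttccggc
Ccng1, chr11:40755287-40755536, minus strand: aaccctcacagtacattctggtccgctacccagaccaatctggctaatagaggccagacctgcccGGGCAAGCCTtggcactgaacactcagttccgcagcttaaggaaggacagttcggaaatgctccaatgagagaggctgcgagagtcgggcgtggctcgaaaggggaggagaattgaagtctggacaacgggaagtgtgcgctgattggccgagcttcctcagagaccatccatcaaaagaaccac
In Cdkn1a the 2 decamers began 73 and 51 bases before the more upstream of its annotated starts, which lie 2790 bases apart. The bases directly after the second of them depart from the consensus only at their first base. They were not counted or marked as a decamer, so the marked pair need not be the pair that p53 binds. The decamer began 40 bases before the start in Gadd45a, 185 in Ccng1, 186 in Mdm2 and 201 in Bax. The other members with a match were Trp53, Ppm1d, Aen, Ei24, Sesn1, Polk and Rps27l. A match is a description of these letters and not a bound site. For Mdm2, the p53 sites known from earlier work lie in its first intron, outside this window.

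Most p53 targets were higher in the Ythdf1 knockout than in control. Of the 31 members, 20 rose (64.5%), 3 fell and 8 did not pass the test. Over all tested genes 46.5% were called, 23.7% higher and 22.8% lower. The median log2 fold change was 0.50 over the members and 0.02 over all tested genes. In the Usp5 knockout 2 members rose (6.45%), 6 fell (19.4%) and 23 did not pass. Over all tested genes 19.8% were called there, 9.96% higher and 9.8% lower. The median log2 fold change was -0.09 over the members and -0.01 over all tested genes; over the members it was -0.16 without Usp5 knockout replicate 1, -0.15 without control replicate 2 and -0.13 without control replicate 3. In the Ythdf1 knockout 15 of the 31 members rose without Ythdf1 knockout replicate 3, where 16.2% of all genes were higher. Without Ythdf1 knockout replicate 1, 16 rose (16.4% of all genes higher). With library sizes alone as the scaling, 16 rose as well (15.8% of all genes higher). Without control replicate 3, 21 members rose and 3 fell in the Ythdf1 knockout, where 24.5% of all genes were higher and 21.7% lower. In that fit 4 members rose and 8 fell in the Usp5 knockout, and the calls over all genes went up as well, to 16.2% higher and 15% lower. Calls in the Usp5 knockout moved with other libraries too. Without Usp5 knockout replicate 2, 2 members fell (5.86% of all genes lower), and without control replicate 1, 1 rose (5.98% higher). Without control replicate 2, 1 rose and 3 fell (5.04% higher and 5.7% lower over all genes). With counts this small, 1 call more or less moves the share of members, and no test compared them with the shares over all genes. A gene was called at an edgeR adjusted p under 0.05, adjusted over all tested genes. The labels do not say that samples came from separate cultures, so the p-values rest on a spread among samples that could be technical. Both knockouts were set against the same 3 controls. The knockout lines were clones, and the 2 knockouts differed in how the guide was delivered. Clone, delivery and the lost gene therefore cannot be told apart in any of these comparisons.

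**Figure D1:**
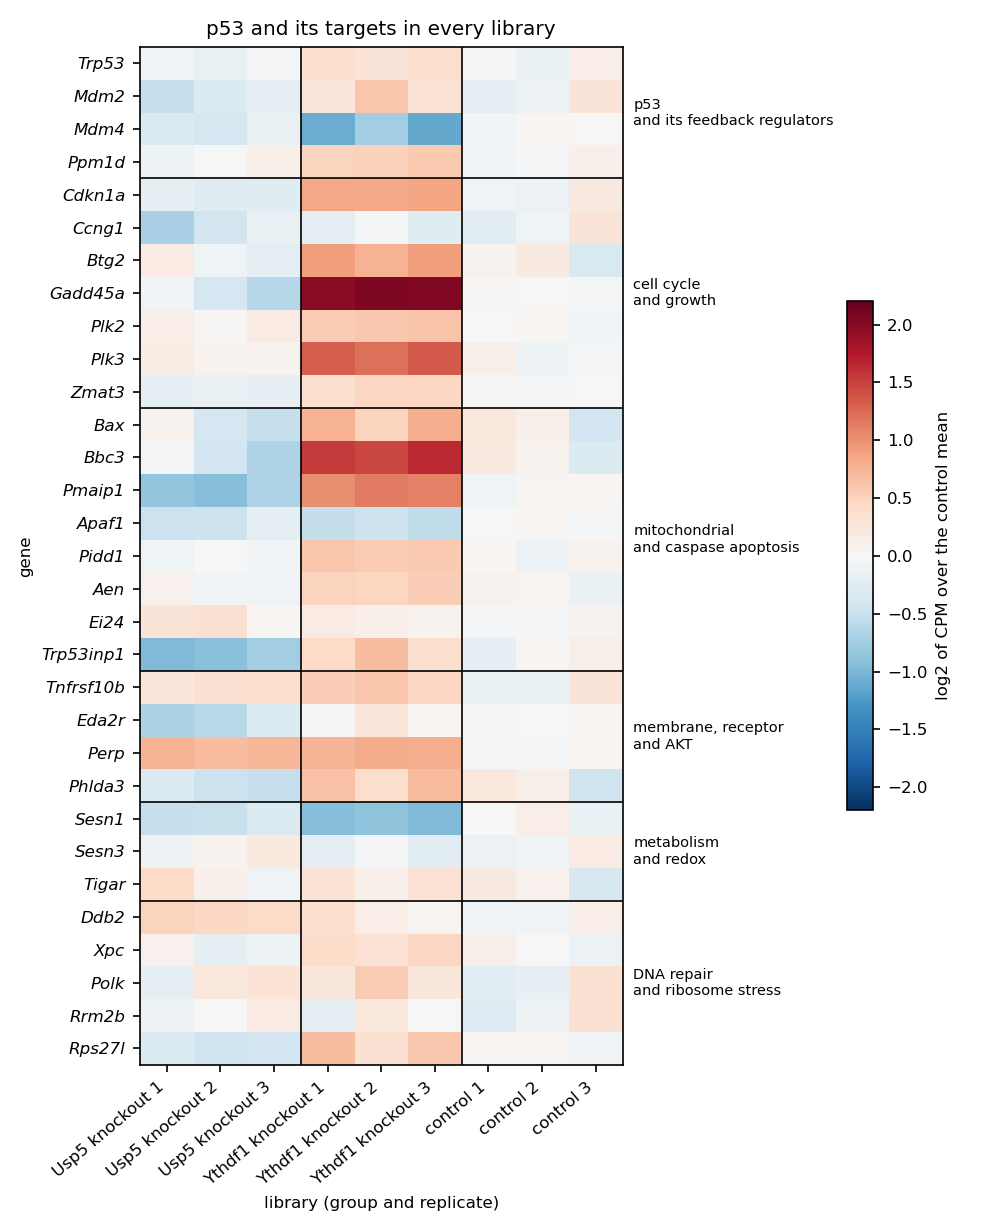
Heat map of the 31 members (rows, grouped by role) in the 9 libraries (columns), coloured by log2 of CPM over the mean of the 3 controls. The 3 Ythdf1 knockout libraries are red for most rows, deepest for Gadd45a, Bbc3, Plk3 and Pmaip1, while Mdm4, Apaf1 and Sesn1 are blue there; in the Usp5 knockout Perp is red and Pmaip1 and Trp53inp1 are blue.

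Trp53 itself was one of the most abundant members per transcript length. In control it averaged 318 TPM, behind Rps27l at 715 TPM and Bax at 335 TPM, while Xpc at 8.65 TPM and Sesn1 at 5.46 TPM were lowest. Trp53 stood at 402, 375 and 406 CPM in the Usp5 knockout, at 536, 512 and 537 CPM in the Ythdf1 knockout and at 412, 379.7 and 464 CPM in control. The Ythdf1 knockout libraries lay above all others, and the Usp5 knockout overlapped the controls. The log2 fold change was 0.34 ± 0.09 in the Ythdf1 knockout (SE; edgeR adjusted p = 0.01026) and -0.09 ± 0.09 in the Usp5 knockout (edgeR adjusted p = 0.5285). The rise in the Ythdf1 knockout did not hold in every fit. Without Ythdf1 knockout replicate 1 or 3 the adjusted p reached at most 0.0559 in edgeR. With library sizes alone the log2 fold change was 0.20 (edgeR adjusted p = 0.07781). After a correction for GC content and gene length the log2 fold change was 0.06 (edgeR adjusted p = 0.6702).

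The feedback regulators of p53 moved in different directions in the Ythdf1 knockout. There 3 of the 4 genes of this role rose (75%, against 23.7% of all tested genes) and 1 fell (25%, against 22.8%). Mdm2 stood at 133, 153 and 165.3 CPM in the Usp5 knockout, at 228, 287 and 234 CPM in the Ythdf1 knockout and at 165.5, 172 and 229 CPM in control. Control replicate 3 lay at the level of the lowest Ythdf1 knockout library, so those groups overlapped. The log2 fold change was 0.41 ± 0.14 in the Ythdf1 knockout (SE; edgeR adjusted p = 0.03857), and the call was lost in 6 of the 9 fits that left out 1 library, those without Usp5 knockout replicate 2, any Ythdf1 knockout replicate or control replicate 1 or 2. The log2 fold change then ranged from 0.26 to 0.57 over the 9 fits. The Mdm2 call was also lost with library sizes alone (edgeR adjusted p = 0.1217). With only the 6 samples compared it was lost as well (edgeR adjusted p = 0.06799). Mdm4, the Mdm2 relative that holds p53 inactive, fell to 32.2 ± 4.53 CPM in the Ythdf1 knockout, against 64.0 ± 2.36 CPM in control (SD, n = 3 each; log2 fold change -0.99 ± 0.11, edgeR adjusted p = 7.17e-05). Ppm1d, the phosphatase known as Wip1 that reverses p53 phosphorylation, rose to 31.4 ± 1.18 CPM, against 21.8 ± 1.51 CPM (log2 fold change 0.53 ± 0.09, edgeR adjusted p = 0.0009951). None of the 4 passed in the Usp5 knockout, where 19.8% of all tested genes did. Mdm4 averaged 52.8 ± 4.12 CPM there, below all controls, at a log2 difference of -0.28 (edgeR adjusted p = 0.08702; 0.0481 without Ythdf1 knockout replicate 2 in the fit).

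Of the 7 members that act on the cell cycle and growth, 6 rose in the Ythdf1 knockout (85.7%, against 23.7% of all tested genes). None of the 7 passed in the Usp5 knockout, where 19.8% of all tested genes did. Cdkn1a, which encodes the cyclin-dependent kinase inhibitor p21, stood at 161, 153 and 152 CPM in the Usp5 knockout, at 329.5, 326 and 335 CPM in the Ythdf1 knockout and at 173, 168 and 209 CPM in control. Every Ythdf1 knockout library lay above every control, and every Usp5 knockout library lay below them. The log2 fold change was 0.85 ± 0.09 in the Ythdf1 knockout (SE; edgeR adjusted p = 7.343e-05) and -0.24 ± 0.09 in the Usp5 knockout (edgeR adjusted p = 0.08967). With library sizes alone as the scaling, the fall in the Usp5 knockout passed (log2 fold change -0.32, edgeR adjusted p = 0.01933).

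Gadd45a, a growth arrest gene induced by DNA damage and by other stresses, had the largest fold change of the 31 members in the Ythdf1 knockout. It stood at 10.2, 8.22 and 6.90 CPM in the Usp5 knockout, at 42.0, 44.3 and 43.7 CPM in the Ythdf1 knockout and at 10.8, 10.6 and 10.5 CPM in control. The Ythdf1 knockout was 4.07-fold higher than control (log2 fold change 2.03 ± 0.12, edgeR adjusted p = 2.892e-06). The Usp5 knockout libraries lay below the controls without passing (log2 fold change -0.32 ± 0.13, edgeR adjusted p = 0.09783), but passed without Usp5 knockout replicate 1 (edgeR adjusted p = 0.01478). Plk3, a stress-responsive polo-like kinase, stood at 24.4, 23.0 and 23.0 CPM in the Usp5 knockout, at 54.7, 50.4 and 55.5 CPM in the Ythdf1 knockout and at 23.8, 20.1 and 21.3 CPM in control. The Ythdf1 knockout libraries again lay above all others, at a log2 fold change of 1.30 ± 0.09 (SE; edgeR adjusted p = 4.633e-06).

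The antiproliferative gene Btg2 averaged 64.2 ± 3.86 CPM in the Ythdf1 knockout and 35.0 ± 6.50 CPM in control (SD, n = 3 each; log2 fold change 0.87 ± 0.14). Plk2, a second polo-like kinase of this set, averaged 397 ± 9.38 CPM in the Ythdf1 knockout and 262 ± 9.20 CPM in control (log2 fold change 0.60 ± 0.07). Zmat3, an RNA-binding tumor suppressor, averaged 165 ± 6.36 CPM in the Ythdf1 knockout and 123 ± 2.64 CPM in control (log2 fold change 0.42 ± 0.07). The highest of their edgeR adjusted p-values was 0.0007966, for Btg2. Ccng1, which encodes cyclin G1 and carries the decamer shown above, did not pass in either knockout. It averaged 243 ± 45.6 CPM in the Usp5 knockout, 287 ± 23.8 CPM in the Ythdf1 knockout and 323 ± 63.2 CPM in control. Its log2 fold change was -0.17 in the Ythdf1 knockout (edgeR adjusted p = 0.4165) and became 0.46 (edgeR adjusted p = 0.000491) after the GC and length correction. In the Usp5 knockout it was -0.41 (edgeR adjusted p = 0.09629; 0.04186 without Usp5 knockout replicate 3).

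**Figure D2:**
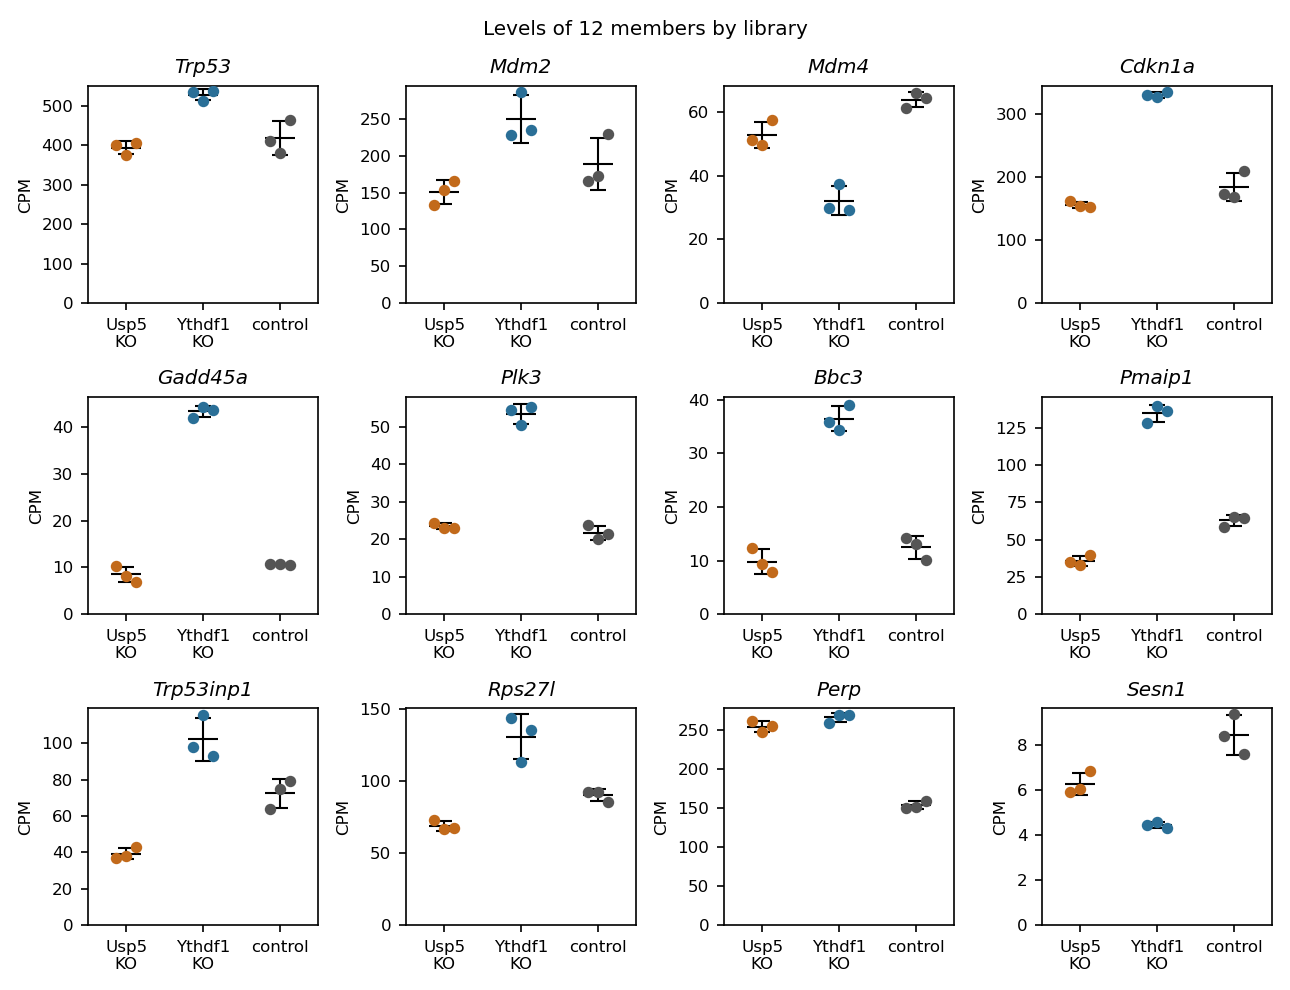
CPM of 12 members in each library (points) with the mean and SD of each group (bars, n = 3), axes starting at 0. Gadd45a, Plk3, Bbc3, Pmaip1 and Cdkn1a lie apart in the Ythdf1 knockout, Mdm4 and Sesn1 are lowest there, Perp is raised in both knockouts, and Pmaip1, Trp53inp1 and Rps27l are on opposite sides of control in the 2 knockouts.

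Among the 8 members that act in mitochondrial or caspase apoptosis, 6 rose in the Ythdf1 knockout (75%, against 23.7% of all tested genes). There 1 fell (12.5%, against 22.8%). In the Usp5 knockout 3 of the 8 fell (37.5%, against 9.8% of all tested genes) and none rose. Bbc3, which encodes the BH3-only protein Puma, stood at 12.3, 9.34 and 7.82 CPM in the Usp5 knockout, at 36.0, 34.4 and 39.0 CPM in the Ythdf1 knockout and at 14.2, 13.1 and 10.1 CPM in control. The Ythdf1 knockout was 2.91-fold higher than control (log2 fold change 1.54 ± 0.17, edgeR adjusted p = 7.512e-05). The Usp5 knockout overlapped the controls (log2 fold change -0.34 ± 0.17, edgeR adjusted p = 0.1821), and passed without control replicate 3 (edgeR adjusted p = 0.04449). Pmaip1, which encodes the BH3-only protein Noxa, stood at 34.6, 33.0 and 39.4 CPM in the Usp5 knockout, at 128, 139 and 136 CPM in the Ythdf1 knockout and at 58.7, 65.3 and 64.6 CPM in control. The 3 groups did not overlap, with the controls in the middle. Pmaip1 rose in the Ythdf1 knockout by 1.10 ± 0.09 on the log2 scale (edgeR adjusted p = 1.239e-05), and in the Usp5 knockout it fell by 0.82 ± 0.09 (edgeR adjusted p = 0.0001273).

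Trp53inp1, a stress protein that favors p53 activity and autophagy, had the same order of groups. It stood at 36.9, 38.2 and 42.9 CPM in the Usp5 knockout, at 98.2, 116 and 93.0 CPM in the Ythdf1 knockout and at 63.7, 74.8 and 79.3 CPM in control. The log2 fold change of Trp53inp1 was 0.50 ± 0.11 in the Ythdf1 knockout (edgeR adjusted p = 0.004513) and -0.88 ± 0.11 in the Usp5 knockout (edgeR adjusted p = 0.0004302). Apaf1, the scaffold of the apoptosome, was lower in both knockouts, at 49.1 ± 5.10 CPM in the Usp5 knockout, 44.6 ± 1.77 CPM in the Ythdf1 knockout and 63.6 ± 1.68 CPM in control (SD, n = 3 each). For Apaf1 the log2 fold change was -0.37 ± 0.09 in the Usp5 knockout (edgeR adjusted p = 0.01292) and -0.51 ± 0.09 in the Ythdf1 knockout (edgeR adjusted p = 0.0009458). For the Usp5 knockout that call was lost without Usp5 knockout replicate 1 or 2 or control replicate 2 (edgeR adjusted p at most 0.06667). In the Ythdf1 knockout it was lost after the GC and length correction (log2 fold change -0.16, edgeR adjusted p = 0.1332).

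Bax, the pore-forming effector at the mitochondrial outer membrane, averaged 140.0 ± 31.4 CPM in the Usp5 knockout, 267 ± 30.4 CPM in the Ythdf1 knockout and 166 ± 37.3 CPM in control (SD, n = 3 each). Its log2 fold change of 0.68 ± 0.19 in the Ythdf1 knockout passed (edgeR adjusted p = 0.01326), but not without Ythdf1 knockout replicate 1 or 3 (edgeR adjusted p at most 0.05943) or after the GC and length correction (log2 fold change 0.20). The controls themselves spread widely, at 194, 180.0 and 124 CPM. Pidd1, a death-domain scaffold that activates caspase-2, averaged 59.4 ± 0.911 CPM in the Ythdf1 knockout and 39.7 ± 2.94 CPM in control (log2 fold change 0.58 ± 0.08, edgeR adjusted p = 0.0002337). Aen, an apoptosis-enhancing nuclease, averaged 156 ± 3.80 CPM in the Ythdf1 knockout and 110.2 ± 8.81 CPM in control (log2 fold change 0.50 ± 0.08, edgeR adjusted p = 0.0008361). Ei24, a membrane protein of the endoplasmic reticulum, passed in neither knockout, with a log2 fold change of 0.13 in the Ythdf1 knockout and one of 0.23 in the Usp5 knockout. It passed in the Usp5 knockout without Usp5 knockout replicate 3 or control replicate 3 (edgeR adjusted p as low as 0.02247).

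Of the 4 members at the membrane or in AKT signaling, Perp rose in both knockouts. Perp, a tetraspan membrane protein of cell junctions, averaged 254 ± 7.24 CPM in the Usp5 knockout, 266 ± 5.80 CPM in the Ythdf1 knockout and 154 ± 4.79 CPM in control (SD, n = 3 each). For Perp the log2 fold change was 0.72 ± 0.07 in the Usp5 knockout (SE; edgeR adjusted p = 5.76e-05) and 0.79 ± 0.07 in the Ythdf1 knockout (edgeR adjusted p = 2.219e-05). Eda2r, the ectodysplasin A2 receptor, averaged 19.6 ± 2.90 CPM in the Usp5 knockout, 30.6 ± 2.92 CPM in the Ythdf1 knockout and 28.3 ± 0.610 CPM in control. It fell in the Usp5 knockout (log2 fold change -0.53 ± 0.11, edgeR adjusted p = 0.008921; 0.05025 without Usp5 knockout replicate 2) and did not pass in the Ythdf1 knockout.

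The death receptor Tnfrsf10b averaged 97.6 ± 4.79 CPM in the Ythdf1 knockout and 67.4 ± 12.6 CPM in control (log2 fold change 0.54 ± 0.12, edgeR adjusted p = 0.003791). Usp5 knockout cells averaged 84.2 ± 3.19 CPM, which did not pass (log2 fold change 0.32, edgeR adjusted p = 0.07586), but it passed without control replicate 3 (edgeR adjusted p = 0.001064). Phlda3, a repressor of AKT at the membrane, averaged 150.1 ± 11.2 CPM in the Usp5 knockout, 301 ± 34.4 CPM in the Ythdf1 knockout and 201 ± 46.2 CPM in control. Its log2 fold change of 0.58 ± 0.16 in the Ythdf1 knockout (edgeR adjusted p = 0.01255) was no longer called without Ythdf1 knockout replicate 1 or 3 (edgeR adjusted p at most 0.06679), with library sizes alone (log2 fold change 0.43, edgeR adjusted p = 0.06338) or after the GC and length correction (log2 fold change 0.19, edgeR adjusted p = 0.1547). Phlda3 did not pass in the Usp5 knockout (log2 fold change -0.42, edgeR adjusted p = 0.08524), but did without control replicate 3 (log2 fold change -0.60, edgeR adjusted p = 0.002077).

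The 3 metabolic members did not rise in either knockout (23.7% of all tested genes rose in the Ythdf1 knockout and 9.96% in the Usp5 knockout). Sesn1, a leucine-sensing inhibitor of mTORC1, was lower in both, at 6.25 ± 0.493 CPM in the Usp5 knockout, 4.43 ± 0.125 CPM in the Ythdf1 knockout and 8.46 ± 0.888 CPM in control (SD, n = 3 each). The log2 fold change was -0.44 ± 0.12 in the Usp5 knockout (edgeR adjusted p = 0.02799) and -0.93 ± 0.12 in the Ythdf1 knockout (edgeR adjusted p = 0.0002334). The call in the Usp5 knockout was lost without Usp5 knockout replicate 1 or 2 or control replicate 1 or 2 (edgeR adjusted p at most 0.1244). Sesn3, of the same family, and Tigar, which lowers glycolytic flux, passed in neither. Sesn3 had log2 fold changes of 0.07 without Usp5 and -0.16 without Ythdf1, and Tigar of 0.17 and 0.25.

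Of the 5 members in DNA repair and ribosome stress, Xpc and Rps27l rose in the Ythdf1 knockout (40%, against 23.7% of all tested genes). None fell there, so 40% were called, below the 46.5% over all genes. In the Usp5 knockout Ddb2 rose and Rps27l fell (20% each, against 9.96% higher and 9.8% lower over all genes). Rps27l, a ribosomal protein paralog that binds Mdm2, stood at 72.9, 66.8 and 67.3 CPM in the Usp5 knockout, at 144, 113 and 135 CPM in the Ythdf1 knockout and at 92.7, 92.5 and 85.4 CPM in control. The groups did not overlap. For Rps27l the log2 fold change was 0.54 ± 0.09 in the Ythdf1 knockout (edgeR adjusted p = 0.001204) and -0.39 ± 0.09 in the Usp5 knockout (edgeR adjusted p = 0.01734; at most 0.06937 without Usp5 knockout replicate 2 or control replicate 1 or 2, where the call was lost). Rps27, its near-identical paralog, can share reads with it and averaged 157 ± 56.6 CPM in the Usp5 knockout, 235 ± 53.8 CPM in the Ythdf1 knockout and 159 ± 46.3 CPM in control. Xpc, a sensor of damage in nucleotide excision repair, averaged 30.5 ± 1.47 CPM in the Ythdf1 knockout and 23.1 ± 1.96 CPM in control. Its log2 fold change was 0.40 ± 0.10 (edgeR adjusted p = 0.009297). The call was lost without Ythdf1 knockout replicate 3 (edgeR adjusted p = 0.05745). With library sizes alone it was lost too (log2 fold change 0.25, edgeR adjusted p = 0.09803).

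Ddb2, a partner of Xpc in that repair, averaged 13.4 ± 0.328 CPM in the Usp5 knockout and 9.73 ± 0.846 CPM in control (SD, n = 3 each; log2 fold change 0.46 ± 0.11, edgeR adjusted p = 0.01487). The call was lost without control replicate 1 or 2 (edgeR adjusted p at most 0.07144). Exons of Ddb2 overlap 652 bases of Acp2 on the opposite strand, and Acp2 averaged 34.4 CPM over all libraries against 11.4 CPM for Ddb2, so its value is uncertain. Polk, a DNA polymerase that copies past lesions, and Rrm2b, the p53-induced subunit of ribonucleotide reductase, did not pass in either knockout. Polk averaged 37.6 ± 6.68 CPM in the Usp5 knockout, 44.1 ± 5.54 CPM in the Ythdf1 knockout and 34.5 ± 7.97 CPM in control. Without control replicate 3, which was the highest control for both genes, Polk passed in the Ythdf1 knockout (log2 fold change 0.56, edgeR adjusted p = 0.01147).

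**Figure D3:**
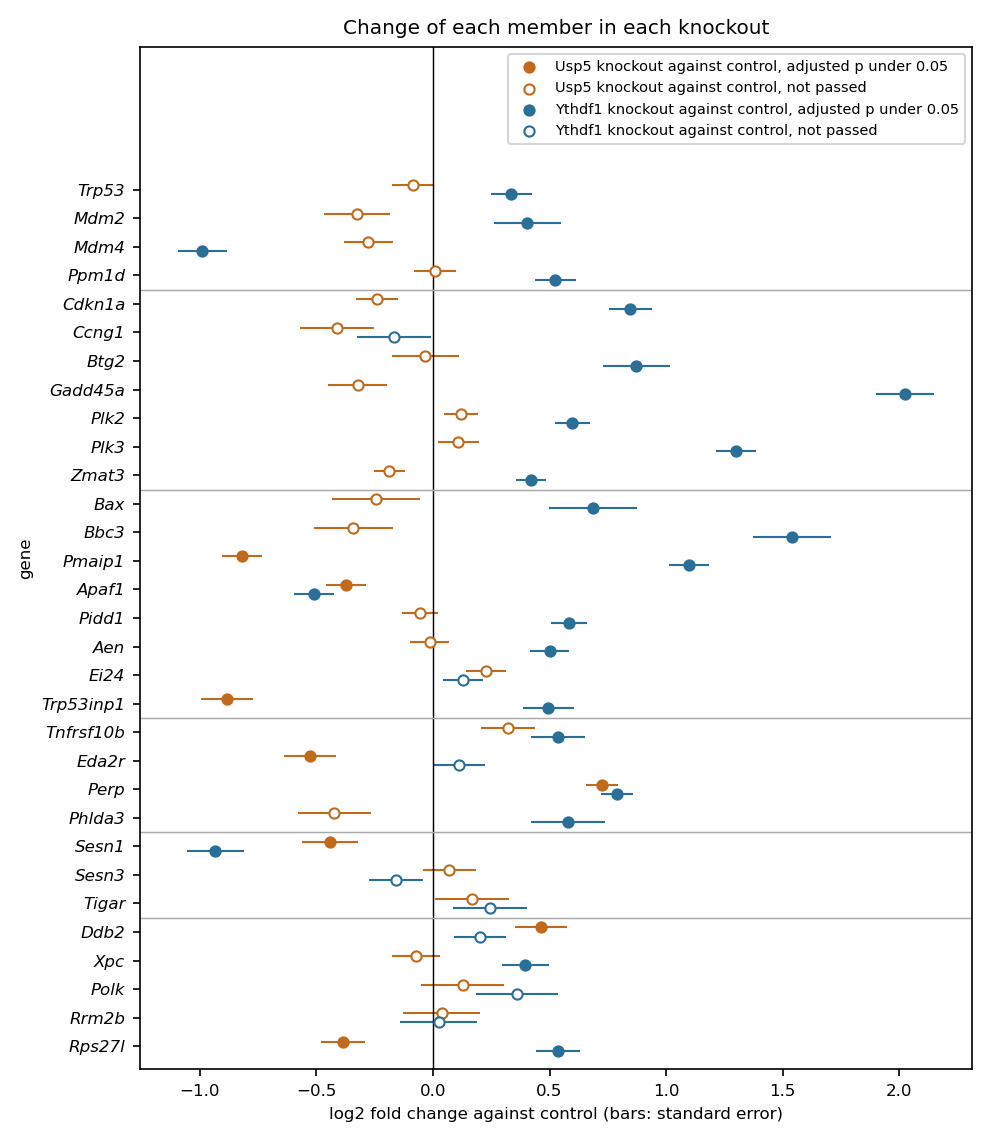
Log2 fold change against control of each member (rows, in the order of roles in the text) in the Usp5 knockout (orange) and the Ythdf1 knockout (blue), with bars for the standard error and filled points for an edgeR adjusted p under 0.05. Most blue points lie right of 0, from 0.34 for Trp53 to 2.03 for Gadd45a among the 20 that rose, while 8 orange points are filled, Perp and Ddb2 on the right and Trp53inp1, Pmaip1, Eda2r, Sesn1, Rps27l and Apaf1 on the left. Both comparisons share their controls.

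Set directly against each other, the Usp5 knockout had lower levels than the Ythdf1 knockout for 19 members and higher levels for 2, and 10 did not pass. Over all tested genes 48.5% were called in this comparison, 25.2% lower and 23.3% higher. The median log2 fold change of the Usp5 knockout over the Ythdf1 knockout was -0.51 over the members and 0.00028 over all tested genes. Without control replicate 3 in the fit the counts were 20 lower and 3 higher (28.2% and 26.5% over all genes). Gadd45a differed by -2.35 ± 0.13 (log2, SE; edgeR adjusted p = 6.672e-07), Pmaip1 by -1.92 ± 0.09 (edgeR adjusted p = 2.213e-07) and Bbc3 by -1.88 ± 0.17 (edgeR adjusted p = 1.875e-05). Trp53inp1 differed by -1.38 ± 0.11 (edgeR adjusted p = 1.041e-05), Cdkn1a by -1.09 ± 0.09 (edgeR adjusted p = 1.232e-05) and Rps27l by -0.92 ± 0.10 (edgeR adjusted p = 4.175e-05). The 2 members higher in the Usp5 knockout were Mdm4 (0.71 ± 0.11, edgeR adjusted p = 0.0004117) and Sesn1 (0.49 ± 0.13, edgeR adjusted p = 0.008644). Trp53 was lower in the Usp5 knockout by 0.42 ± 0.09 on the log2 scale (edgeR adjusted p = 0.002982), but the call was lost after the GC and length correction (log2 difference -0.18, edgeR adjusted p = 0.177). Perp and Apaf1 did not pass, at log2 differences of -0.07 ± 0.07 and 0.14 ± 0.09 in that order. These values use the same Ythdf1 knockout libraries as the comparison with control.

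A wider list of 38 other known p53 targets, of which 36 were tested, was counted beside the members. In the Ythdf1 knockout 20 rose (55.6%, against 23.7% of all tested genes) and 4 fell (11.1%, against 22.8%). The median log2 fold change was 0.35. Ak1, an adenylate kinase, averaged 37.9 ± 1.56 CPM in the Ythdf1 knockout and 17.8 ± 0.927 CPM in control (SD, n = 3 each; log2 fold change 1.09 ± 0.08, edgeR adjusted p = 7.767e-06). The epoxide hydrolase Ephx1 averaged 177 ± 5.09 CPM in the Ythdf1 knockout and 98.9 ± 15.4 CPM in control (log2 fold change 0.84 ± 0.10, edgeR adjusted p = 0.0001626). Of the 36, 3 rose (8.33%, against 9.96% of all tested genes) and 17 fell (47.2%, against 9.8%) in the Usp5 knockout. The median log2 fold change there was -0.24, and it stayed -0.24 with Cyfip2 at its bound below. Fas, the death receptor for Fas ligand, averaged 3.20 ± 0.0345 CPM in the Usp5 knockout and 7.63 ± 0.508 CPM in control (log2 fold change -1.26 ± 0.11, edgeR adjusted p = 3.974e-05). Ptpn14, a phosphatase that restrains Yap, averaged 2.24 ± 0.0630 CPM and 5.95 ± 0.552 CPM in the same groups (log2 fold change -1.41 ± 0.12, edgeR adjusted p = 3.934e-05). The autophagy gene Dram1 fell in both knockouts, to 2.77 ± 0.308 CPM in the Usp5 knockout and 4.90 ± 0.442 CPM in the Ythdf1 knockout, against 7.42 ± 0.732 CPM in control. Ada, an adenosine deaminase, rose in both, to 14.7 ± 0.930 CPM in the Usp5 knockout and 17.0 ± 0.882 CPM in the Ythdf1 knockout, against 9.31 ± 0.508 CPM in control.

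The actin regulator Cyfip2 had 0 counts over the 3 Usp5 knockout libraries, 8 over the Ythdf1 knockout libraries and 148 over the controls. Against a floor of 3 counts over the group it was at least 42.4-fold lower in the Usp5 knockout than in control. Prdm1, a transcriptional repressor, averaged 14.9 ± 1.73 CPM in the Usp5 knockout, 5.78 ± 1.03 CPM in the Ythdf1 knockout and 6.03 ± 0.541 CPM in control (SD, n = 3 each), and rose in the Usp5 knockout by 1.31 ± 0.15 on the log2 scale (edgeR adjusted p = 0.000197). Between the knockouts, 5 of the 36 were higher (13.9%, against 23.3% of all tested genes) and 25 lower (69.4%, against 25.2%) in the Usp5 knockout.

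Of 30 regulators and partners of p53, 28 were tested. In the Ythdf1 knockout 6 rose (21.4%, against 23.7% of all tested genes) and 9 fell (32.1%, against 22.8%), so that 53.6% were called, near the 46.5% over all genes. The damage kinases Atr and Atm were among those that fell. Atr averaged 12.8 ± 2.08 CPM in the Usp5 knockout, 10.8 ± 2.37 CPM in the Ythdf1 knockout and 23.3 ± 2.59 CPM in control (SD, n = 3 each). For Atr the log2 fold change was -0.87 ± 0.17 in the Usp5 knockout (edgeR adjusted p = 0.005262) and -1.11 ± 0.17 in the Ythdf1 knockout (edgeR adjusted p = 0.0005516). Atm averaged 16.2 ± 1.02, 11.5 ± 0.854 and 21.6 ± 0.769 CPM in the Usp5 knockout, the Ythdf1 knockout and control. The checkpoint kinase Chek2 and the deubiquitinase Usp7, which acts on Mdm2 and p53, fell in the Ythdf1 knockout, with log2 fold changes of -0.78 ± 0.12 (edgeR adjusted p = 0.000614) and -0.67 ± 0.10 (edgeR adjusted p = 0.0004941). Ppp1r13l, which encodes the p53 inhibitor iASPP, rose in both knockouts, to 42.8 ± 3.06 CPM in the Usp5 knockout and 70.4 ± 1.85 CPM in the Ythdf1 knockout, against 31.7 ± 3.46 CPM in control. In the Usp5 knockout 3 rose and 3 fell (21.4% called, against 19.8% of all genes), but leaving out 1 library moved the 6 calls of this list to between 3 without Usp5 knockout replicate 2 and 13 without control replicate 3.

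The targets of the ATF4 stress pathway matter here because p53 shares several of them. Of 13 such stress genes outside the 31 members, 12 rose in the Ythdf1 knockout (92.3%, against 23.7% of all tested genes) and none fell, with a median log2 fold change of 2.18. The largest were the stress cofactor Nupr1, at 79.6 ± 7.62 CPM in the Ythdf1 knockout and 5.60 ± 1.03 CPM in control (log2 fold change 3.84 ± 0.15, edgeR adjusted p = 1.207e-07), and the glutathione-degrading enzyme Chac1, at 58.7 ± 4.91 CPM and 5.96 ± 0.371 CPM in the same groups (log2 fold change 3.30 ± 0.15, edgeR adjusted p = 4.373e-07). Without Usp5, 3 of the 13 rose and 3 fell (23.1% each, against 9.96% higher and 9.8% lower over all genes), with a median of 0.04; 3 calls were left without Usp5 knockout replicate 1 or 2 or control replicate 1 or 2. Of the 3 that rose, Gdf15 changed most, to 67.7 ± 3.17 CPM in the Usp5 knockout, against 39.1 ± 5.61 CPM in control (log2 fold change 0.79 ± 0.11, edgeR adjusted p = 0.0008017). In the Ythdf1 knockout Gdf15 rose to 261 ± 22.5 CPM. Gadd45b, of the Gadd45 family, fell in the Usp5 knockout to 6.26 ± 0.752 CPM, against 16.3 ± 2.61 CPM in control (log2 fold change -1.38 ± 0.14, edgeR adjusted p = 0.0001229). Bcl2l11, which encodes the BH3-only protein Bim, fell there to 42.1 ± 3.42 CPM, against 57.0 ± 2.62 CPM. Among the members, Gadd45a, Bbc3, Pmaip1 and Tnfrsf10b are also known as targets of ATF4 or of its partner CHOP, and for 3 of these 4 the log2 fold change reached 1 or more in the Ythdf1 knockout. With those 4 set aside, a choice made after the data had been seen, 16 of 27 members rose (59.3%, against 23.7% of all genes) and 3 fell (11.1%, against 22.8%) in the Ythdf1 knockout, with a median log2 fold change of 0.41. Of the same 27, 2 rose (7.41%, against 9.96% of all genes) and 5 fell (18.5%, against 9.8%) in the Usp5 knockout. Which pathway moved the shared genes was not tested, and the 27 were not shown to be free of ATF4 targets.

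Of 22 cell cycle genes that p21 is known to lower through the DREAM repressor complex, 2 rose (9.09%, against 23.7% of all tested genes) and 11 fell (50%, against 22.8%) in the Ythdf1 knockout, with a median log2 fold change of -0.21. Mki67, which encodes the proliferation antigen Ki-67, averaged 203 ± 28.0 CPM in the Ythdf1 knockout and 409 ± 129 CPM in control (SD, n = 3 each; log2 fold change -1.01 ± 0.19, edgeR adjusted p = 0.001776). The controls of Mki67 stood at 322, 347 and 557 CPM, highest in control replicate 3, and every Ythdf1 knockout library lay below them. The spindle checkpoint kinase Bub1 averaged 16.6 ± 2.76 CPM and 38.9 ± 4.99 CPM in the same groups (log2 fold change -1.23 ± 0.14, edgeR adjusted p = 0.0001138). The mitotic kinesin Kif23 averaged 46.0 ± 1.37 CPM and 86.4 ± 12.6 CPM (log2 fold change -0.91 ± 0.10, edgeR adjusted p = 8.551e-05). E2f1, an activator of S-phase genes, rose in the Ythdf1 knockout to 114 ± 6.69 CPM, against 76.7 ± 3.44 CPM in control (log2 fold change 0.57 ± 0.08, edgeR adjusted p = 0.0003357). In the Usp5 knockout 3 of the 22 rose (13.6%, close to the 9.96% of all genes) and none fell: E2f1 (edgeR adjusted p = 0.01915), the mitotic kinase Plk1 (edgeR adjusted p = 0.02226) and the phosphatase Cdc25c (edgeR adjusted p = 0.04989). The call of Cdc25c was lost in 9 of the 9 fits that left out 1 library (edgeR adjusted p = 0.07516 to 0.1156). Without Usp5 knockout replicate 1 or 2 or control replicate 2 there were 0 calls in the list, and without control replicate 3 there were 7. Whether the level of Cdkn1a bears on these genes was not tested.

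**Figure D4:**
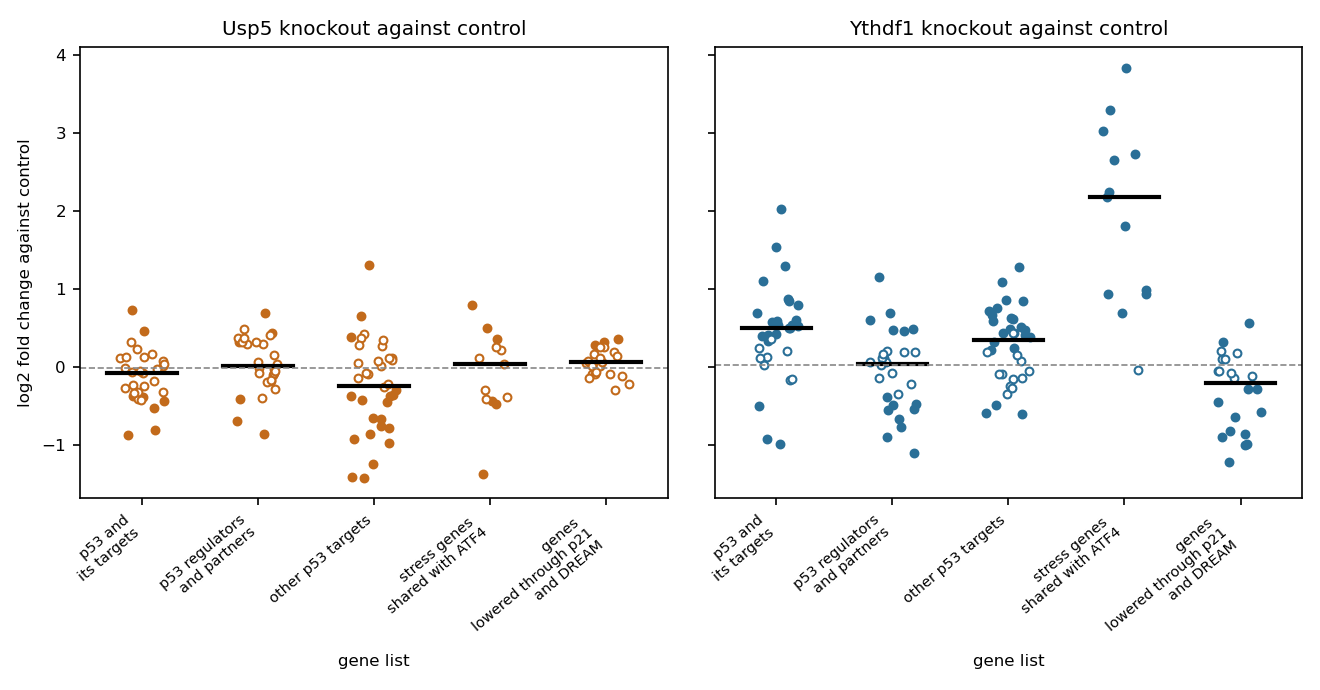
Log2 fold change against control of the genes of 5 lists in the Usp5 knockout (left) and the Ythdf1 knockout (right), with filled points for an edgeR adjusted p under 0.05, black bars for list medians and a dashed line for the median of all tested genes. The members and the other p53 targets have medians of 0.50 and 0.35 on the right and of -0.09 and -0.24 on the left, while the ATF4-shared genes reach 2.18 on the right. Cyfip2, which is below the axis in both comparisons, is not drawn.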

How the data were processed

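RNA from 9 samples (3 Usp5 knockout, 3 Ythdf1 knockout, 3 control) was sequenced from poly(A) libraries, per the labels' protocols. The authors deposited one table of estimated counts per gene, written as whole numbers. fastp 0.23.2, STAR 2.7.10a, Salmon 1.9.0 and the GRCm39 build appear in the submitters' processing notes with no roles. The sources used here do not say whether counting used strand. Counts were tested with edgeR 4.0.16 (R 4.3.3; TMM scaling, filterByExpr, quasi-likelihood test, all 9 samples, group as the only term), with Benjamini-Hochberg adjustment over 13661 genes and a call at 0.05. TPM used the deposited effective gene lengths. The test was tried on simulated data. Promoters came from RefSeq (GRCm38.p6), and GC content and exon overlaps from a GRCm38 annotation matched by gene identifier. The alternatives were DESeq2 1.42.0, limma-voom (limma 3.58.1), RLE scaling, library sizes alone, other filters, only the 6 samples compared, a replicate block, stricter thresholds, a GC and length correction and leaving out each library. No 2 libraries agreed within counting noise. Values in every sample are given for Trp53, Cdkn1a, Mdm2, members called against control with a log2 change of 1 or more in size and members called in opposite directions in the knockouts; other lists are shown by up to 4 called genes per direction and comparison with at least 1 CPM. Members, lists and rules were chosen with earlier results of these data known.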

Additional observations from a re-analysis of the deposited data

How the results depend on the processing

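In the Ythdf1 knockout 15 of the 20 higher calls and 2 of the 3 lower calls held under every alternative fit and every omission of 1 library at the same threshold; Trp53, Mdm2, Bax, Phlda3, Xpc and Apaf1 did not. In the Usp5 knockout 1 of 2 higher calls (Perp) and 2 of 6 lower calls (Pmaip1, Trp53inp1) held, and between the knockouts 2 of 2 and 18 of 19, all but Trp53. In the Usp5 knockout 11 members were lower with library sizes alone, where 13.4% of all genes were lower. With the GC and length correction 12 were lower, against 12.9% of all genes (9.8% as reported). Higher and lower calls there were 1 and 3 at an adjusted p under 0.01, where 1305 of all tested genes were called. They were also 1 and 3 with a log2 fold change of at least 0.5, where 1675 were called. Between the knockouts 1 higher call kept that size. The members' median log2 fold change was -0.17 with library sizes alone in the Usp5 knockout. In the Ythdf1 knockout it was 0.35 with library sizes alone, 0.45 with no filter or with the GC and length correction, 0.46 with only the 6 samples compared and 0.41 without the 4 ATF4 or CHOP targets. Library sizes alone moved the median of all genes to -0.10 in the Usp5 knockout and -0.12 in the Ythdf1 knockout, and the share of called genes that were higher to 35.9% (50.4% with TMM), 34% (50.9%) and, between the knockouts, 56.1% (48.1%). The GC and length correction reversed Ccng1 in the Ythdf1 knockout (0.46) and Rrm2b between the knockouts (-0.30). It also brought Polk (0.76), Eda2r (0.45), Rrm2b (0.41) and Ei24 (0.26) past the threshold in the Ythdf1 knockout. The causes were not tested.

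Over all genes, 1756 were called in the Usp5 knockout with only the 6 samples compared, 1305 at an adjusted p under 0.01 and 1675 with a log2 fold change of at least 0.5 (2700 as reported). That size of change gave 4085 in the Ythdf1 knockout (6350) and 4342 between the knockouts (6627), where the stricter p gave 4363. Regulators and partners called in the Usp5 knockout were 10 with DESeq2, with no filter and with the GC and length correction, 2 at the stricter p and 3 with the fold change (6); in the Ythdf1 knockout 9 with the fold change (15); between the knockouts 9 under either (17). Other p53 targets with the fold change were 13 (20) in the Usp5 knockout and 14 (24) in the Ythdf1 knockout. ATF4-shared genes in the Usp5 knockout were 3 with only the 6 samples compared, 3 at the stricter p and 2 with the fold change (6). DREAM genes there were 6 with DESeq2 and with the GC and length correction and 0 with only the 6 samples compared, at the stricter p and with the fold change (3), and between the knockouts 8 with the fold change (13).

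Leaving out 1 library gave 1 to 4 higher and 2 to 8 lower members in the Usp5 knockout. Over all genes 5.04% to 16.2% were then higher and 5.7% to 15% lower. In the Ythdf1 knockout it gave 15 to 21 and 3 to 3 (16.2% to 24.5% and 18.4% to 24.4% over all genes). Between the knockouts it gave 2 to 3 and 19 to 20 (18% to 26.5% and 17.8% to 28.2%). The lowest counts in the Usp5 knockout were without Usp5 knockout replicate 2 (2 lower), control replicate 1 (1 higher) and control replicate 2 (1 higher, 3 lower), and the highest without control replicate 3. Members' medians ranged from -0.16 to -0.0795, 0.40 to 0.50 and -0.52 to -0.46, and genes called from 1494 to 4371, 4848 to 6479 and 5002 to 7648, in the order of comparisons above. Regulators ranged from 3 to 13, 14 to 18 and 10 to 20, other p53 targets from 16 to 22, 19 to 24 and 24 to 31, ATF4-shared genes from 3 to 6, 12 to 12 and 12 to 13, and DREAM genes from 0 to 7, 10 to 13 and 10 to 16.

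The labels do not say that replicate numbers pair the samples. Of 9 same-numbered pairs, 5 had a correlation of deviations over 0.1 (-0.40 to 0.43), and in 5 of 9 comparisons a library correlated best with its own number. With so few samples this cannot show whether pairing was present. The replicate block gave 2 higher and 5 lower members in the Usp5 knockout, without Sesn1 (edgeR adjusted p = 0.05338). It gave 20 and 3 in the Ythdf1 knockout and 2 and 19 between the knockouts. The genes called over all genes were 2346, 6198 and 6458 in that order.

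Sesn1, Ddb2, Gadd45a and Bbc3 had the lowest counts of the members in control, at 8.46, 9.73, 10.6 and 12.5 CPM. With 3 samples a group the precision of every value is limited.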

Other observations

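The promoter windows were also searched for the CRE and ATF motif TGACGTCA, which reads the same on both strands. It was in the windows of 3 of the 23 members with one, Ppm1d, Btg2 and Plk2 (13%), and of 549 of 27025 genes (2.03%). TGATGNAA, the composite motif bound by ATF4 with C/EBP proteins, was searched on both strands and found in 1 member, Polk (4.35%), and in 1219 of all genes (4.51%). The 8 members without a window could not be searched: Zmat3, Pmaip1, Trp53inp1, Tnfrsf10b, Perp, Ddb2, Xpc and Rrm2b. Among them are Pmaip1 and Tnfrsf10b, named above as targets of ATF4 or CHOP. A match is a description of these letters only.

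Members varied among the replicates of a group as well. In control replicate 3 a total of 4 members, Bax, Phlda3, Polk and Rrm2b, lay more than 0.5 log2 units from the other controls. In Usp5 knockout replicate 1 Bax did so, and no member did in the other 7 libraries.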
